A study of Mus musculus with 6 samples.

Results

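Aminoacyl-tRNA synthetases join each amino acid to its tRNA before the ribosome can use it. The cytosol and the mitochondria have largely separate sets of these enzymes, and both sets are encoded in the nucleus. The transcription factor ATF4 is made when the translation factor eIF2 is phosphorylated, as happens when amino acids run short or when the endoplasmic reticulum is under stress. It activates many cytosolic synthetase genes, together with genes for amino acid synthesis, transport and one-carbon metabolism, often through a short DNA element that it binds with C/EBP proteins (the C/EBP-ATF response element, CARE). Liver makes most plasma proteins and so uses these enzymes heavily.

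The genes described here are 39 named genes of this system, chosen by symbol out of 23284 genes counted, by their known function and with earlier results of these data known. They are 20 cytosolic synthetase genes, 13 mitochondrial synthetase genes, and 6 genes of amino acid synthesis and of the ATF4 response (Asns, Psat1, Phgdh, Psph, Chac1 and Sesn2). All 39 were found in the count tables. Liver RNA from 6 C57BL/6 mice was sequenced, 3 given vehicle and 3 given FGF19 (1 mg/kg), a human gut hormone whose mouse counterpart is FGF15. All mice were 8 weeks old, had been without food overnight, remained fasted and were examined 6 h after treatment. Each library came from the liver of 1 mouse.

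Total counts lay between 18994654 and 22920056 per mouse, and levels are given as CPM, counts scaled to a common library size with edgeR's TMM factors. Where no read was counted, up to 3 counts cannot be told from 0, or between 0.136 and 0.159 CPM, which covers counting error only and is a lower limit, since the mates of a read pair were counted separately. A gene was called when its adjusted p was under 0.05 by the quasi-likelihood (QL) test of edgeR over the 12559 genes that passed the filter on low counts. Counts at p under 0.01, the threshold of the study, are given beside the calls for the member groups and for the pathway genes as a whole. Of the 39 genes, 38 passed the filter, all except Phgdh. Hepatocyte markers summed to between 101230 and 106280 CPM in vehicle mice and between 102177 and 113705 CPM in FGF19 mice, so the labelled tissue carried its defining genes. Of the 8 markers, 1 was called, the fibrinogen gene Fgb, with 4279 ± 590.4 CPM (SD, n = 3) in the vehicle mice against 10915 ± 512.7 CPM (SD, n = 3) after FGF19, and its part in the members' levels was not tested. Hnf4a went the other way, with each FGF19 mouse below each vehicle mouse (log2 fold change -0.31, edgeR QL adjusted p = 0.120). The fold changes of Alb, Apoa1, Ttr and Serpina1a were also below 0, and those of Apob and Tat were above 0. Because the RNA came from whole liver, fewer cells of a type and less RNA per cell cannot be told apart.

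The core of the CARE was written as TGATGNAA and sought on both strands between 250 bases before and 50 bases after the first base of each gene model on mouse build mm9. It was present in 6 of 20 cytosolic synthetase genes (Aars, Cars, Gars, Iars, Nars and Tars), in 0 of 13 mitochondrial synthetase genes, and in Asns and Chac1. Of the 12556 tested genes with a window, 1.95% held it, and of all 23102 windows 3.44%. A match describes the letters only. For 7 of these 8 genes, 1 match is printed with its neighbouring bases because it is the element that ties synthetase genes to ATF4. Each is 30 bases of the mm9 genome, read 5′ to 3′ on the strand on which the element reads TGATGNAA, with the 8 element bases in capitals.
Aars, chr8:113557740-113557769, minus strand: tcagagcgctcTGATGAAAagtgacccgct
Cars, chr7:150785950-150785979, plus strand: cttccagaatcTGATGCAAccgcggcgccg
Gars, chr6:54987954-54987983, minus strand: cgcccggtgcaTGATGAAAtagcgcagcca
Iars, chr13:49777495-49777524, minus strand: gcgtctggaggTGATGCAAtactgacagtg
Tars, chr15:11329410-11329439, plus strand: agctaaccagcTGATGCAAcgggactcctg
Asns, chr6:7643214-7643243, minus strand: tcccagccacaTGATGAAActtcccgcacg
Chac1, chr2:119176774-119176803, minus strand: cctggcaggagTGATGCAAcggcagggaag

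Counted from the first base of the gene model, with negative positions upstream, the element began at -50 in Asns, -193 in Chac1, -15 in Tars and -30 in Gars. In Aars the match shown began at -116. In Cars, Iars and Nars it began after the start site, at bases 28, 8 and 29 of the gene. The windows of Wars, Yars, Psat1 and Sesn2, which are described below, held no match to these letters. Only this window was read for each gene, and start sites elsewhere in a gene were not searched. Of the 6 members called higher with FGF19, Nars and Asns thus held the element. Other elements were sought in the same windows on both strands. The interferon-stimulated response element (GAAA, any 2 bases, GAAA) was found in Qars, Rars and Vars, 3 of 20 cytosolic genes beside 3.21% of tested genes, and in 0 of the 6 members called higher. The endoplasmic reticulum stress element (CCAAT, any 9 bases, CCACG) was found in 0 of the 39 members and in 0.151% of tested genes.

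Of the 20 cytosolic synthetase genes, 3 rose at an adjusted p under 0.05 (Wars, Nars and Yars), none fell, and 17 did not pass (edgeR QL). Over all genes tested, 4.56% were called higher and 2.84% lower. At p under 0.01 there were 10 of 20 higher, beside 6.20% of all genes tested, and 0 lower, beside 4.98%. The fold changes of 19 of the 20 were above 0, as were those of 49.9% of all genes tested, with a median log2 fold change of 0.29 for the group and -0.00076 for all genes tested. In 15 of the 20, each FGF19 mouse lay above each vehicle mouse, beside 14.5% of all genes tested. For the 0 genes called lower, there were also 0 with DESeq2, limma-voom or edgeR's likelihood ratio test. At an unadjusted p under 0.05 there were 0 lower as well, beside 1417 of the 12559 genes tested.

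**Figure D1:**
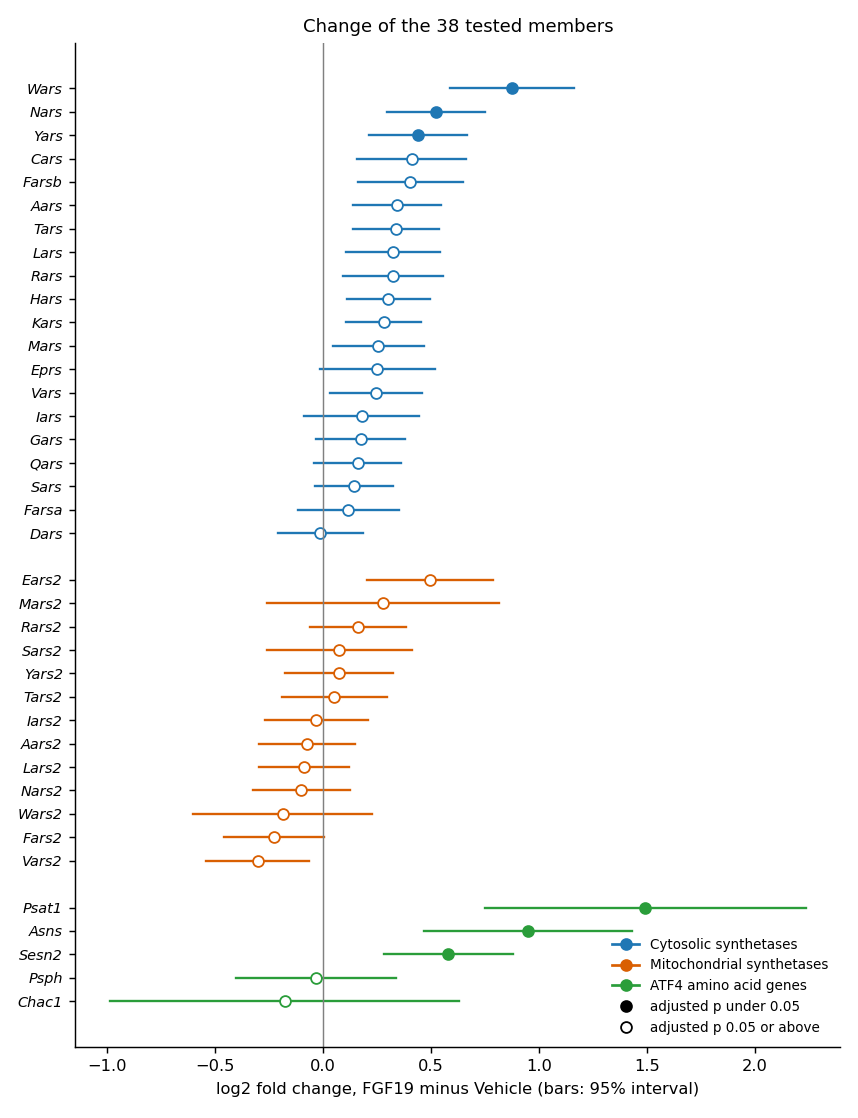
Log2 fold change of each of the 38 tested members, FGF19 minus vehicle, with its 95% interval (3 mice per group). Filled points have an edgeR QL adjusted p under 0.05. The cytosolic synthetases sit to the right of 0 except Dars at -0.01, and the mitochondrial ones spread on both sides.

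Wars, the tryptophanyl-tRNA synthetase gene (chromosome 12, 110098240 to 110132384), which is also known as an interferon-inducible gene, had the largest fold change of the 20. Its level was 15.0, 14.5 and 15.2 CPM in the vehicle mice and 26.6, 32.1 and 23.2 CPM in the FGF19 mice. The vehicle mice lay close together and the groups did not overlap. The log2 fold change was 0.87 (SE 0.129, a 1.83-fold rise), with an edgeR QL adjusted p of 0.00411, and the call held in every one of the 14 alternative fits, with adjusted p up to 0.0278. Wars was the one cytosolic gene that also passed an adjusted p under 0.01.

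Nars, the asparaginyl-tRNA synthetase gene (chromosome 18, 64659301 to 64676211), was at 104, 94.4 and 94.4 CPM with vehicle and at 140, 156 and 124 CPM with FGF19. Each FGF19 mouse was above the highest vehicle mouse. This was a log2 fold change of 0.52 (SE 0.101, edgeR QL adjusted p = 0.0153). Yars, the tyrosyl-tRNA synthetase gene (chromosome 4, 128867039 to 128896851), was at 21.7, 19.4 and 18.8 CPM with vehicle and at 25.4, 26.9 and 28.8 CPM with FGF19. Again the groups did not overlap, with a log2 fold change of 0.44 (SE 0.101, edgeR QL adjusted p = 0.0318). Both calls depended on the libraries included, while the fold changes stayed near their size. The adjusted p of Nars was 0.0547 without vehicle replicate 2, 0.0843 without vehicle replicate 3, and 0.0580 and 0.0608 without FGF19 replicates 1 and 2. That of Yars was 0.0964, 0.142, 0.0721 and 0.102 in the same fits, in which calls over all genes also fell. Across the fits that left out 1 library, the log2 fold change was between 0.44 and 0.60 for Nars and between 0.39 and 0.50 for Yars.

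A further 7 cytosolic genes had p under 0.01 without passing the adjusted threshold. Tars (threonine) was at 114, 126 and 116 CPM with vehicle and at 148, 161 and 140 CPM with FGF19, and an edgeR QL adjusted p of 0.0522 was the closest of the 7 to the threshold. Aars (alanine), the most abundant of the 20 by CPM, was at 198, 171 and 175 CPM with vehicle and at 217, 241 and 231 CPM with FGF19 (log2 fold change 0.34, edgeR QL adjusted p = 0.0525). Cars (cysteine) had a log2 fold change of 0.41 and Farsb, the beta subunit of the phenylalanine enzyme, one of 0.40. Lars (leucine), Hars (histidine) and Kars (lysine, an enzyme that serves both compartments from 1 gene) had log2 fold changes of 0.32, 0.30 and 0.28. The groups did not overlap for any of these 7 genes, and their edgeR QL adjusted p lay between 0.0522 and 0.0775. Part of the Aars exons, 532 bases or 10.9% of their length, is shared with Exosc6, and reads lying on both genes were left out of the counts.

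The other 10 cytosolic genes had log2 fold changes between -0.01 and 0.32. Rars, Mars and Vars, the arginine, methionine and valine enzymes, were higher at p under 0.05 before adjustment, beside 1463 of the 12559 genes tested. Eprs (the joined glutamate and proline enzyme), Gars, Iars, Qars, Sars and Farsa, the alpha subunit that works with Farsb, had 95% intervals that included 0. Dars, the aspartate enzyme, had the lowest fold change of the group. Its level was 74.6, 72.2 and 78.6 CPM with vehicle and 75.6, 79.0 and 68.6 CPM with FGF19, and the groups overlapped. The change was, on the log2 scale, -0.01, with a 95% interval from -0.21 to 0.18, which leaves out a fold change as large as that of Nars or Wars.

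The mitochondrial synthetases showed no common shift. Of the 13 genes, 0 were called higher and 0 lower in the edgeR QL test, beside the 4.56% and 2.84% of all genes tested. At p under 0.01 there was 1 higher and 0 lower, beside 6.2% and 4.98%. At an unadjusted p under 0.05 there was 1 higher and 1 lower, beside 1463 and 1417 of the 12559 genes tested. DESeq2, limma-voom and edgeR's likelihood ratio test each called 1 higher, Ears2, and 0 lower. The fold changes of 6 were above 0 and of 7 below, with a median log2 fold change of -0.03. Summed over the 13 genes, the level was 425 ± 16.8 CPM (SD, n = 3) in vehicle mice and 408 ± 15.3 CPM (SD, n = 3) with FGF19. The same sum for the cytosolic genes was 1152 ± 29.9 CPM (SD, n = 3) in vehicle mice and 1411 ± 75.4 CPM (SD, n = 3) with FGF19.

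Ears2, which charges the mitochondrial tRNA for glutamate, stood at the upper end. It was at 9.76, 7.68 and 8.53 CPM with vehicle and at 11.6, 12.3 and 12.8 CPM with FGF19, so the groups did not overlap. Its log2 fold change was 0.49 (SE 0.130), and its edgeR QL adjusted p of 0.050034 missed the threshold by the smallest margin of any member. Over the 14 alternative fits its adjusted p lay between 0.0167 and 0.173. Vars2, the mitochondrial valine enzyme, stood at the lower end, at 26.7, 29.4 and 28.1 CPM with vehicle and at 25.2, 20.3 and 22.7 CPM with FGF19. Each FGF19 mouse was below each vehicle mouse, as in 13.8% of all genes tested, with a log2 fold change of -0.30 (95% interval -0.54 to -0.06) and an edgeR QL adjusted p of 0.123. Fars2 was the other mitochondrial gene with every FGF19 mouse below the vehicle mice, and Rars2, with Ears2, had every FGF19 mouse above.

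**Figure D2:**
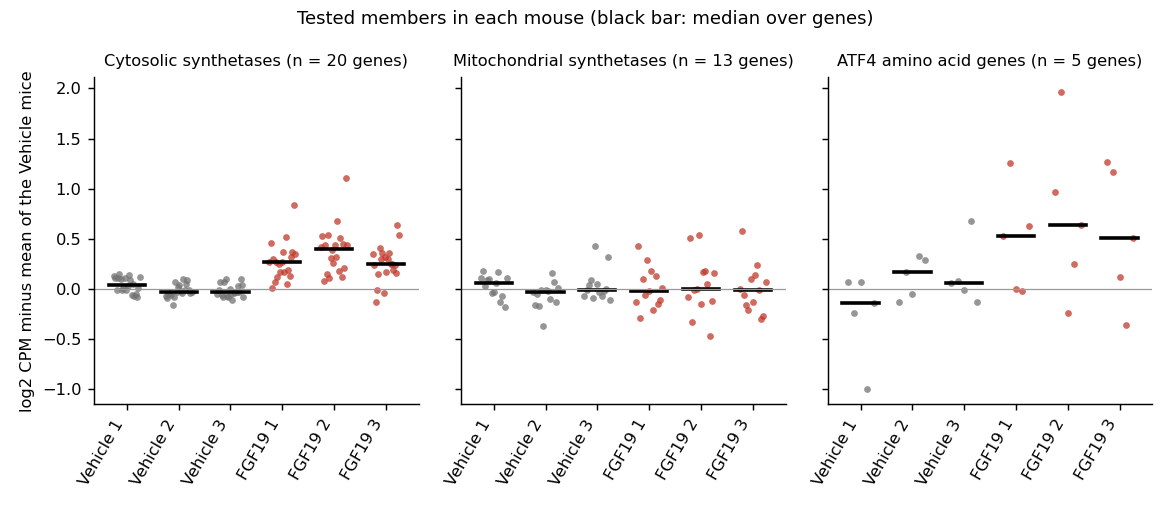
Log2 CPM of each tested member in each mouse, minus its mean over the vehicle mice, for the 20 cytosolic, 13 mitochondrial and 5 amino acid genes (grey, vehicle; red, FGF19; black bar, median over genes). The cytosolic medians are 0.26, 0.40 and 0.25 in the FGF19 mice and between -0.04 and 0.04 in the vehicle mice.

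The levels of the cytosolic genes in single mice are given as a description, with no test between mice. The median deviation from the vehicle mean over the 20 genes was 0.26, 0.40 and 0.25 on the log2 scale in FGF19 replicates 1, 2 and 3, and 0.04, -0.03 and -0.04 in vehicle replicates 1, 2 and 3. FGF19 replicate 2 held the highest value of the 6 mice in 12 of the 20 genes, replicate 3 in 6 and replicate 1 in 1. The remaining gene, for which a vehicle mouse was highest, was Farsa. The corresponding medians of the mitochondrial genes were -0.02, -0.00 and -0.01 in the FGF19 mice, inside the range of the vehicle mice. Leaving out FGF19 replicate 3 raised the number of cytosolic genes called higher from 3 to 11, while each of the fits without vehicle replicate 2, vehicle replicate 3, FGF19 replicate 1 or FGF19 replicate 2 called 1. Over all genes, the calls also rose without FGF19 replicate 3, from 573 to 1015 higher and from 357 to 926 lower. In each of the other 5 such fits they fell, to between 236 and 398 higher and between 91 and 202 lower. The group median of the log2 fold change moved little in these fits, between 0.27 and 0.32.

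Levels per length of exon (CPM per kilobase) place these changes on the scale of expression. The median of the cytosolic genes was 17.4 CPM per kilobase with vehicle and that of the mitochondrial genes 6.16. Lars2, a mitochondrial gene, was nevertheless the most abundant member with vehicle, at 48.3 ± 3.24 CPM per kilobase (SD, n = 3), above Tars at 44.9 ± 2.42 (SD, n = 3), a difference within the spread between mice. Wars was the least abundant cytosolic gene with vehicle, at 5.17 ± 0.138 CPM per kilobase (SD, n = 3), and was at 9.48 ± 1.57 (SD, n = 3) with FGF19. The amino acid genes lay lowest, with a median of 2.32 CPM per kilobase in vehicle mice.

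**Figure D3:**
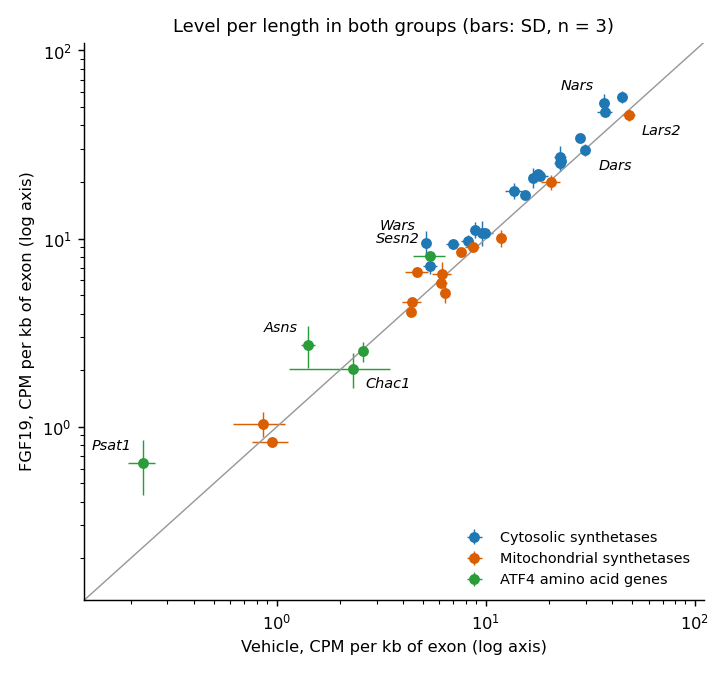
Mean level per length of exon (CPM per kilobase, log axes) in vehicle mice and in FGF19 mice for the 38 tested members, with SD over 3 mice. Points above the grey line of equal levels are higher with FGF19, and Psat1 lies farthest above it, at 0.228 and 0.645 CPM per kilobase.

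The genes of amino acid synthesis and of the ATF4 response divided. Psat1, Asns and Sesn2 rose, while Psph and Chac1 did not pass and Phgdh was too low to be tested. This is 3 of 5 tested genes called higher and 0 lower in the edgeR QL test, beside 4.56% and 2.84% of all genes tested, with a group median of 0.58 on the log2 scale. At p under 0.01 the counts were also 3 and 0, beside 6.2% and 4.98%. DESeq2, limma-voom and edgeR's likelihood ratio test called the same 3 higher and 0 lower, and 0 were lower at an unadjusted p under 0.05.

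Psat1 encodes phosphoserine aminotransferase, the middle step of serine synthesis from glucose (chromosome 19, 15979613 to 15999549). It was near the limit of detection, with 10, 12 and 12 counts with vehicle and 29, 48 and 28 counts with FGF19, or 0.476, 0.636 and 0.595 CPM against 1.35, 2.20 and 1.27 CPM. The groups did not overlap, and the FGF19 mice were more spread than the vehicle mice. Its log2 fold change of 1.49 (SE 0.331, edgeR QL adjusted p = 0.0270), a 2.81-fold rise, was the largest of all members. Neither neighbouring step was called. Phgdh, the first step, had 1, 2 and 1 counts with vehicle and 7, 2 and 3 with FGF19, so no change in it was detectable at this depth. Psph, the last step, was at 4.14, 3.81 and 3.92 CPM with vehicle and at 3.95, 3.35 and 4.30 CPM with FGF19, and the groups overlapped. The log2 fold change was -0.03 with a 95% interval from -0.40 to 0.34.

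Asns encodes asparagine synthetase, a textbook ATF4 target (chromosome 6, 7625171 to 7643182), and its promoter element is the Asns sequence printed above. It was at 2.86, 2.49 and 2.83 CPM with vehicle and at 3.91, 5.33 and 6.56 CPM with FGF19. Each FGF19 mouse was above each vehicle mouse, and the FGF19 mice ranged widely. This was a log2 fold change of 0.95 (SE 0.214, a 1.93-fold rise, edgeR QL adjusted p = 0.0286). Asns and Nars, which make asparagine and join it to its tRNA, were both among the 6 members called.

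Sesn2 encodes sestrin 2, a stress-induced leucine sensor that restrains the growth kinase complex mTORC1 (chromosome 4, 132048722 to 132066371). It was at 12.9, 17.4 and 13.0 CPM with vehicle and at 22.0, 22.2 and 20.4 CPM with FGF19. The FGF19 mice were close together and all above the vehicle mice, with a log2 fold change of 0.58 (SE 0.133, edgeR QL adjusted p = 0.0307). Chac1, an enzyme that degrades glutathione and a sensitive marker of ATF4 activity, varied most within the vehicle group. It was at 1.62, 4.08 and 5.21 CPM with vehicle and at 3.21, 3.86 and 2.53 CPM with FGF19, so that the FGF19 mice lay inside the vehicle range. The change was, on the log2 scale, -0.18 with a 95% interval from -0.99 to 0.63, which is too wide to leave out a change of the size of that of Sesn2 in either direction.

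**Figure D4:**
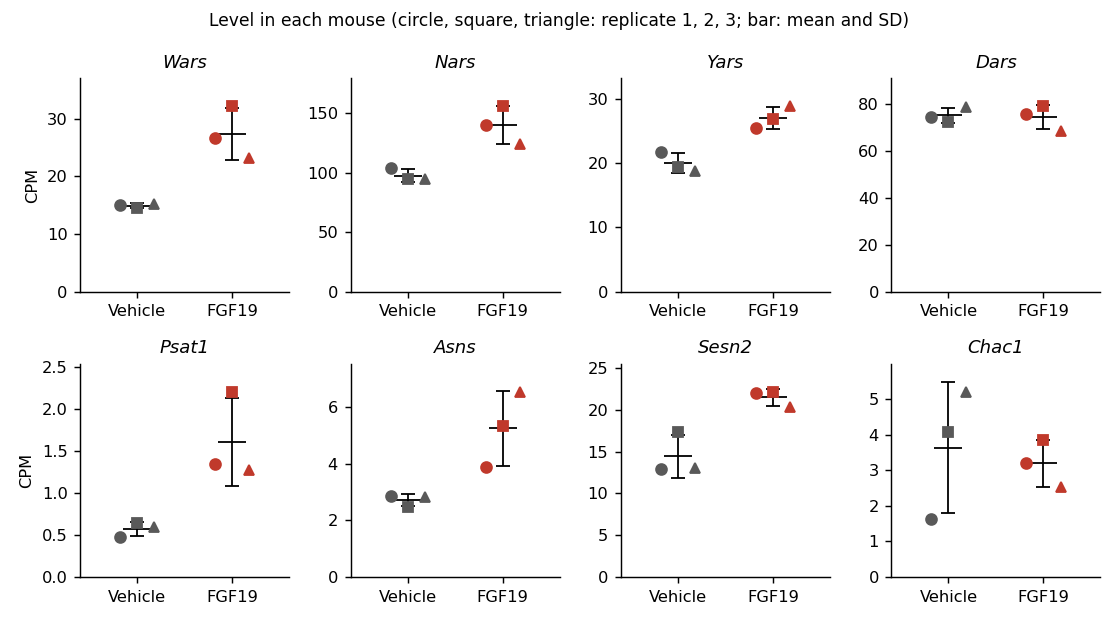
CPM in each mouse for 4 cytosolic synthetase genes (upper row) and 4 amino acid genes (lower row), with the mean and SD of 3 mice per group and axes that start at 0. The groups do not overlap for Wars, Nars, Yars, Psat1, Asns and Sesn2, and do for Dars and Chac1.

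As with Nars and Yars, these calls depended on the libraries included. The adjusted p of Asns was 0.0764 without vehicle replicate 1, 0.0859 without vehicle replicate 2, 0.0991 without vehicle replicate 3 and 0.0911 without FGF19 replicate 2. That of Psat1 was above 0.05 in all fits that left out a library other than FGF19 replicate 3, with values of 0.0932, 0.0614 and 0.0993 without vehicle replicates 1, 2 and 3 and 0.0563 and 0.106 without FGF19 replicates 1 and 2. That of Sesn2 was 0.101 without vehicle replicate 1, 0.140 without vehicle replicate 3, and 0.104 and 0.106 without FGF19 replicates 1 and 2. Across the fits that left out 1 library, the log2 fold change was between 0.76 and 1.12 for Asns, between 1.20 and 1.64 for Psat1 and between 0.50 and 0.73 for Sesn2, and calls over all genes fell in the fits that lost these calls.

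Another 49 genes of the same pathway were examined in 8 lists, of which 45 were tested. Across them 3 rose and 4 fell, beside the 4.56% of all genes tested called higher and 2.84% called lower. At p under 0.01 the counts were also 3 and 4, beside 6.2% and 4.98%. Of the 5 synthetases outside the members and the 3 scaffold proteins of the cytosolic multi-synthetase complex (Aimp1, Aimp2 and Eef1e1), 0 were called in the edgeR QL test or with DESeq2, limma-voom or the likelihood ratio test. At an unadjusted p under 0.05, Pars2, Cars2 and Aimp2 were higher and Tarsl2 lower, beside 1463 and 1417 of the 12559 genes tested.

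The eIF2 kinases, the subunits that direct its phosphatase and eIF2 alpha gave 0 calls of 7 by each of the 4 tools. At an unadjusted p under 0.05, 1 was higher, Eif2s1, which encodes the alpha subunit, beside 1463 of the 12559 genes tested. The log2 fold changes of the 7 lay between -0.06 and 0.32, the highest being that of Eif2ak3, the kinase PERK of the endoplasmic reticulum. Atf4 mRNA was at 98.7, 121 and 102 CPM with vehicle and at 123, 119 and 129 CPM with FGF19. The groups overlapped through vehicle replicate 2, and the log2 fold change of 0.21 had a 95% interval from -0.02 to 0.43 and an edgeR QL adjusted p of 0.251. ATF4 is controlled largely at translation, so its mRNA does not report its protein, which was not measured here.

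Among the transcription factors that act with or below ATF4, 1 of 8 was called. This was Nupr1, a small stress-induced nuclear protein, at 0.524, 0.90 and 0.695 CPM with vehicle and at 1.72, 1.84 and 2.76 CPM with FGF19. Its groups did not overlap (log2 fold change 1.58, SE 0.311, edgeR QL adjusted p = 0.0164), and its adjusted p was 0.0638 without vehicle replicate 1 and 0.0752 without vehicle replicate 3. Ddit3, which encodes CHOP, was at 5.72, 5.61 and 5.16 CPM with vehicle and at 7.07, 6.34 and 6.83 CPM with FGF19. Those groups did not overlap either, yet its log2 fold change of 0.30 did not pass (edgeR QL adjusted p = 0.231), and 68 bases of its exons (7.81%) are shared with Mars on the other strand. Trib3, a pseudokinase induced by ATF4 and CHOP, was at 7.67, 18 and 17.6 CPM with vehicle and at 15.3, 14.9 and 12.1 CPM with FGF19. As for Chac1, vehicle replicate 1 was far below the other vehicle mice, and the log2 fold change was -0.03.

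Further metabolic enzymes of the response, which act in one-carbon, sulphur amino acid, proline and alanine metabolism, moved in both directions, with 1 higher and 2 lower of 7 tested. Mthfd2, a mitochondrial folate enzyme known from ATF4 responses and growing cells, was at 0.667, 0.530 and 0.397 CPM with vehicle and at 1.95, 2.30 and 1.90 CPM with FGF19. These are 14, 10 and 8 counts against 42, 50 and 42, with no overlap. Its log2 fold change was 1.93 (SE 0.281, edgeR QL adjusted p = 0.00394), a 3.82-fold rise, and the call held in every alternative fit that kept the gene. Shmt2, which makes glycine from serine in the mitochondria and supplies Mthfd2's substrate, was at 248, 263 and 254 CPM with vehicle and at 211, 197 and 206 CPM with FGF19. It fell by 0.32 on the log2 scale (edgeR QL adjusted p = 0.0424), with every FGF19 mouse below every vehicle mouse.

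Cth, which makes cysteine from cystathionine, was at 576, 411 and 545 CPM with vehicle and at 376, 304 and 329 CPM with FGF19, a fall of every FGF19 mouse below the vehicle range. The log2 fold change was -0.60 (edgeR QL adjusted p = 0.0293). The adjusted p of Shmt2 was 0.0859, 0.126 and 0.147 without vehicle replicates 1, 2 and 3 and 0.124 and 0.187 without FGF19 replicates 1 and 2. The adjusted p of Cth was 0.0949 without vehicle replicate 1, 0.125 without vehicle replicate 3 and 0.125 without FGF19 replicate 2. Members of the list that were too low to be tested were Aldh1l2 and Pycr1.

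Amino acid transporters known as ATF4 targets gave 0 calls of 7 tested by each of the 4 tools, and 0 at an unadjusted p under 0.05. Their log2 fold changes were all above 0, between 0.13 and 0.52, with 95% intervals that included 0. The eighth, the cystine transporter gene Slc7a11, had no count in 5 of the 6 mice. Of 5 tested other targets, 1 rose and 1 fell. The hepatokine gene Fgf21 was at 7.95, 5.72 and 5.76 CPM with vehicle and at 19.2, 16.4 and 8.37 CPM with FGF19, and FGF19 replicate 3 stood only just above the vehicle mice. This was a log2 fold change of 1.18 (SE 0.281, edgeR QL adjusted p = 0.0361). The call was lost in the fits without vehicle replicates 1, 2 and 3 (adjusted p 0.0587, 0.101 and 0.147) and without FGF19 replicates 1 and 2 (0.124 and 0.114), with limma-voom (0.0732) and without TMM scaling (0.0525). Vldlr, a lipoprotein receptor gene, was at 3.29, 3.92 and 4.07 CPM with vehicle and at 2.09, 1.79 and 1.76 CPM with FGF19, with a log2 fold change of -0.99 (SE 0.189, edgeR QL adjusted p = 0.0141). Its adjusted p was 0.0742 without vehicle replicate 3 and 0.0638 without FGF19 replicate 2.

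The letters TGATGNAA were held by the windows of 9 of these 49 genes (18.4%), beside 1.95% of tested genes and 3.44% of all windows. Among the 9, Nupr1, Fgf21 and Vldlr were called, and their matches are printed. Ppp1r15b, Atf3, Trib3 and Slc1a4 also held the letters and were not called, and Pycr1 and Slc7a11 held them and were not tested. The windows of Mthfd2, Shmt2, Cth and Chac2, the other pathway genes called, held no match. The conventions are those of the sequences above.
Nupr1, chr7:133769076-133769105, plus strand: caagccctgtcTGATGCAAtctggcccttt
Fgf21, chr7:52870981-52871010, plus strand: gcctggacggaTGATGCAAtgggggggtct
Vldlr, chr19:27291299-27291328, minus strand: gctaggagcgcTGATGCAActattgctgct

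**Figure D5:**
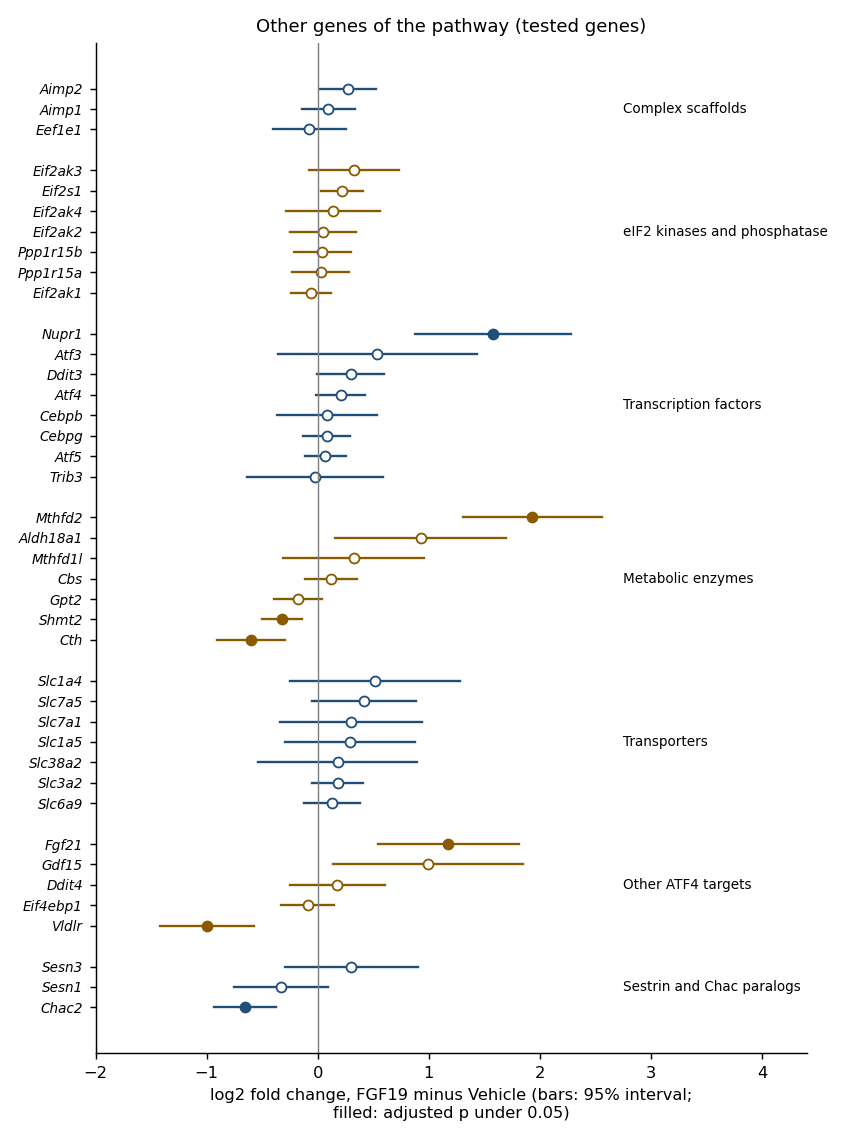
Log2 fold change, FGF19 minus vehicle, with its 95% interval for the tested pathway genes of 7 of the 8 lists, the further synthetases not included (3 mice per group). Filled points have an edgeR QL adjusted p under 0.05, with Mthfd2, Nupr1 and Fgf21 to the right of 0 and Shmt2, Cth, Vldlr and Chac2 to the left.

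Markers of other cells were read in the same libraries. Of the 7 neutrophil markers found, 3 were tested and 1, S100a9, was called higher, and the summed level of the list was between 2.48 and 3.87 CPM in vehicle mice and between 6.29 and 9.28 CPM in FGF19 mice, with none at 0 in all mice. Of 7 Kupffer cell markers 1, Marco, was called higher. Vsig4 went the other way without a call, with each FGF19 mouse below each vehicle mouse (log2 fold change -0.54, edgeR QL adjusted p = 0.0755). Clec4f and Cd5l also had log2 fold changes below 0, at -0.29 and -0.22, with overlapping groups. Those of Emr1, Csf1r and Timd4 were above 0, and for Emr1 (0.36) each FGF19 mouse was above each vehicle mouse. The Kupffer list summed to between 180 and 226 CPM with vehicle and between 182 and 214 CPM with FGF19. Of the tested markers of endothelial, stellate, bile duct, lymphoid, red blood and pancreatic acinar cells, 0 were called in the edgeR QL test, and their summed levels overlapped between the groups. The overlap was narrow for red blood cells, between 57.3 and 78.8 CPM with vehicle and between 43.6 and 57.6 CPM with FGF19. Of the 6 genes of that list, 4 (Hba-a1, Hba-a2, Hbb-b1 and Hbb-b2) were at 0 in all mice. The models of Hba-a1 and Hba-a2 span nearly the same bases, as do those of Hbb-b1 and Hbb-b2. Reads lying on several genes were left out of the counts, so these zeros do not show that globin RNA was absent. Of the 6, 1 was tested, the heme synthesis gene Alas2, which made up nearly all of the summed level. Its log2 fold change was -0.51 (edgeR QL adjusted p = 0.0645), and its part in the members' levels was not tested. Acinar cells, which are rich in synthetases, left at most 7.26 CPM, of which Cela1 made up the most, with Ctrb1 and Cel at 0 in all mice. The other tested marker of that list, Cela2a, was at 0.191, 0.212 and 0.546 CPM with vehicle and at 0.697, 0.873 and 0.633 CPM with FGF19. Its log2 fold change was 1.20 (edgeR QL adjusted p = 0.147). The part of acinar cells in the members' levels was not tested. The summed neutrophil level, which was not itself tested, was higher in each FGF19 mouse than in each vehicle mouse, and its part in the members' levels was not tested.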

How the data were processed

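Liver RNA of 3 vehicle and 3 FGF19 mice was sequenced as paired-end reads. The deposited values are raw counts per gene, which the authors made by aligning reads with STAR (2.5.3a in the submitters' processing notes) and counting them on mm9 exons with featureCounts 1.5.2, without strand, with mates counted separately and without reads that lie on several genes. Such counts miss exon stretches shared between genes. The deposited comparison table (the authors' log fold changes, log CPM, p-values and FDR) was not used. The members and the gene lists were chosen with earlier results of these data known, and so was the motif.

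The analysis ran in R 4.3.3 and edgeR 4.0.16, using filterByExpr, TMM scaling and the quasi-likelihood test of FGF19 against vehicle without covariates, with Benjamini-Hochberg adjustment over the 12559 genes tested. The study used an edgeR pipeline and p under 0.01 without naming the test. Standard errors were taken from the F statistic. The test was checked on simulated counts for this comparison with 12477 genes tested. It recovered 100 of 100 genes changed by 2 on the log2 scale and 88 of 98 changed by 1, with 9 unchanged genes called. Genes were named by rule: members with an adjusted p under 0.05 or p under 0.01, all amino acid members, the highest and lowest fold change of each member group, Atf4, Ddit3, Trib3, and pathway genes with an adjusted p under 0.05. Others given by value or symbol (Gars, Iars, Eif2s1 and Eif2ak3, for example) were chosen after their values were seen. Marker lists covered hepatocytes, Kupffer, endothelial, stellate, bile duct, neutrophil, lymphoid, red blood and pancreatic acinar cells. Alternatives were DESeq2 1.42.0, limma-voom (limma 3.58.1), the likelihood ratio test, no TMM, RLE scaling, no filter, at least 1 CPM in every library, each library left out, the replicate number as a block and other thresholds.

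All pairs of libraries differed beyond sampling noise (chi-square per degree of freedom from 8.68 to 41.8 within groups). Promoter letters were read from the mm9 (NCBIM37) genome at the first base of each gene model of the count tables, for 39 of 39 members. A gene and a site found in these steps are not reported here.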

Additional observations from a re-analysis of the deposited data

How the results depend on the processing

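The median log2 fold change of the cytosolic synthetases stayed near its value of 0.29 in every fit, with 19 or 20 of the 20 genes above 0, and scaling moved the median of all genes tested by less than 0.01. Counts of calls moved more. The members called higher numbered 6, and 11 with the likelihood ratio test, 10 with DESeq2, 3 with the replicate number as a block, 14 at p under 0.01 and 1 at an adjusted p under 0.01. Leaving out each library in turn gave between 1 and 14, and between 0 and 1 lower. The cytosolic genes called higher numbered 3, and 7 with the likelihood ratio test, 6 with DESeq2, 5 with at least 1 CPM in every library, 10 at p under 0.01, 1 at an adjusted p under 0.01, and between 1 and 11 with a library left out. The mitochondrial genes called higher numbered 0, and 1 with the likelihood ratio test, DESeq2, limma-voom, at least 1 CPM in every library or p under 0.01. With a library left out, between 0 and 1 were lower, and their median log2 fold change was between -0.10 and 0.0133. The amino acid members called higher numbered 3, 1 with the block, 0 at an adjusted p under 0.01, and between 0 and 3 with a library left out. Their median of 0.58 was 0.76 with no filter, 0.28 with at least 1 CPM in every library, which removes Psat1, and between 0.50 and 0.73 with a library left out. The other pathway genes called higher numbered 3, and 1 with at least 1 CPM in every library or at an adjusted p under 0.01, and those lower numbered 4, and 0 at an adjusted p under 0.01. With a library left out there were between 1 and 5 higher and between 0 and 4 lower. The causes of these moves were not tested.

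Fold changes that turned sign were those of genes near 0 and without a call. With a library left out, Psph ranged from -0.11 to 0.0669, Chac1 from -0.54 to 0.18, Dars from -0.0515 to 0.0454 and Trib3 from -0.33 to 0.16, and Trib3 was at 0.0759 with limma-voom and 0.0443 with the replicate block. Same-numbered mice did not deviate together (correlations of deviations -0.03, -0.18 and -0.18), so the numbers were not taken as pairs, and the block lowered the number of genes called higher from 573 to 370. Under it Yars (adjusted p = 0.107), Asns (0.0555), Sesn2 (0.0520) and Shmt2 (0.154) were no longer called by edgeR, and the other named genes kept their call. Of 389 results of named genes under an alternative, 311 kept direction and side of the threshold. Phgdh, Pycr1, Aldh1l2, Slc7a11 and Stc2 were too low in counts to be tested, and Psat1, Mthfd2 and Nupr1 rest on 8 to 61 counts per mouse.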

Other observations

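Paralogs of 2 members were read beside them. Chac2, the constitutive relative of Chac1 that also degrades glutathione, was at 21.4, 17.2 and 17.8 CPM with vehicle and at 13.1, 11.4 and 11.4 CPM with FGF19, so that each FGF19 mouse was below each vehicle mouse. Its log2 fold change was -0.65 (SE 0.125, edgeR quasi-likelihood adjusted p = 0.0147), and its adjusted p was 0.0520 without vehicle replicate 1, 0.0534 without vehicle replicate 3 and 0.0696 without FGF19 replicate 2. Sesn1 and Sesn3, the relatives of Sesn2, did not pass the test. Sesn1 was at 10.8, 15.5 and 14.6 CPM with vehicle and at 13.2, 10.8 and 8.46 CPM with FGF19, and Sesn3 at 3.57, 3.50 and 4.96 CPM against 6.28, 5.51 and 3.08 CPM. The groups overlapped for both.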
